A study of Mus musculus with 2 samples.

Results

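*Six2* was the only one of the measured Six-family and Eya genes whose signal differed by 2-fold or more between a *Dullard*-/- and a *Dullard*+/- mouse embryo at E7.5. It was higher in *Dullard*-/-, as were 0.894% of all 14771 genes measured on both arrays by that size, while 0.765% reached 2-fold lower values. In counts these were 132 genes higher and 113 lower, and 90 higher and 165 lower without scaling of the arrays. The genes described are 8 of the 20281 genes that the array names, *Six2*, *Six3*, *Six4*, *Six5*, *Eya1*, *Eya2*, *Eya3* and *Eya4*, read by 9 probes. They were selected on values of this same comparison, in which *Six2* was among the highest genes, so the value of *Six2* is a description and supports nothing by itself. Of the 8 genes, 7 were measured on both arrays (4 of the Six-family and 3 of the Eya family), and *Eya4* was well above background on neither.

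Dullard (*Ctdnep1*) is a phosphatase of the nuclear envelope and endoplasmic reticulum, and the study compared embryos lacking it with heterozygous ones. One whole embryo homozygous for the mutated *Dullard* gene and one heterozygous embryo, both labelled C57BL/6, were each read on 1 array. The study made a null allele and a *LacZ* allele of *Dullard* and called embryos homozygous for either *Dullard*-/-, with no record in the sources used here of which one these embryos carried. Both embryos carry at least 1 mutated allele, so no wild-type embryo entered the comparison, and a single embryo of each genotype allows neither a replicate check nor a p-value. Neither the stage nor the sex of the individual embryos can be told apart from genotype, nor can fewer cells of a type from less RNA per cell in a whole embryo. The Y-linked genes *Eif2s3y*, *Uty* and *Ddx3y* were higher in *Dullard*-/-, with log2 fold changes of 1.21, 0.86 and 0.68. They were chosen after their values were seen, and other Y-linked genes were not looked at.

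Six-family proteins, named after *sine oculis* of the fly, bind DNA through a homeodomain and the neighbouring SIX-type domain. Eya proteins, named after *eyes absent*, do not bind DNA themselves. They join Six-family proteins as coactivators and carry a phosphatase domain of the haloacid dehalogenase type, the superfamily to which Dullard also belongs. Together with Pax and Dach proteins they form a network used again and again in the eye, ear, muscle and kidney.

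The sequence before the start of *Six2* is shown because *Six2* is the member past 2-fold, that of *Six3* because it is the neighbouring gene, and that of *Six4* because it holds the one match to the element searched for. RefSeq promoters of the GRCm38.p6 build matched 6 of the 8 genes. Each line gives the 250 bases before the start, 5′ to 3′ on the strand of the gene. The windows lie at chr17:85688255-85688504 on the minus strand for *Six2*, chr17:85620584-85620833 on the plus strand for *Six3* and chr12:73113246-73113495 on the minus strand for *Six4*, 1 of the 2 starts listed for that gene. Capitals mark matches, on either strand, to the MEF3 element bound by Six-family proteins (TCAGGTTNC) or to the core TGACAG read by MEIS homeodomain proteins.
Six2: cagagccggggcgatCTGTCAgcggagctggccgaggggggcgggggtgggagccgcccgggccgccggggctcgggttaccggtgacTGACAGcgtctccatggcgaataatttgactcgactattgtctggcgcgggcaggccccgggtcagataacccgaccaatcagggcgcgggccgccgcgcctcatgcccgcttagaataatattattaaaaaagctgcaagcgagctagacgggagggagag
Six3: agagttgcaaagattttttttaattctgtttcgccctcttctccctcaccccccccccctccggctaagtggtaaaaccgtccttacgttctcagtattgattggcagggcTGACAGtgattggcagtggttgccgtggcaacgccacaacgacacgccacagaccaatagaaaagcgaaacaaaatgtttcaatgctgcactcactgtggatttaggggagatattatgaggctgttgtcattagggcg
Six4: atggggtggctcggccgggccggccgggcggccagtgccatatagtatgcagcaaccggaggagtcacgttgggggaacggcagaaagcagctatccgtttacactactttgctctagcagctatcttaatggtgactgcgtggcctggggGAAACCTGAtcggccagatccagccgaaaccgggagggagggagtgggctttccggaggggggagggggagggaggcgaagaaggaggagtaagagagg

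The MEF3 element was found in the window of *Six4*, on the reverse strand at bases -99 to -91 counted back from the start. It was not in the windows of *Six2* or *Six3*, and 1.07% of the 32851 windows of this length in the table hold it. The core TGACAG was chosen after the sequences had been read. *Six2* holds it at -235 to -230 on the reverse strand and at -162 to -157 on the forward strand. *Six3* holds it once, at -139 to -134 on the forward strand, and *Six5* once, at -105 to -100. The core is in 15.9% of all windows, so many other genes share it. These matches describe the letters and are neither shown to be bound sites nor a cause of any value below.

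The label of each embryo was first set against *Dullard* itself. The *Dullard* probe had a signal of 144 on the *Dullard*-/- array, against 672 on the *Dullard*+/- array, a log2 fold change of -2.11 ± 0.07 after scaling. Signals are the background-subtracted intensities of the scanner, and each array was scaled to its own 75th percentile, 264 for *Dullard*-/- and 286 for *Dullard*+/-, before any fold change. Here and below ± gives the scatter (SD) of log2 ratios among repeated spots of similarly bright probes, divided by the root of the number of probes. It holds the error of the array alone and nothing of the spread between embryos. The remaining signal in the *Dullard*-/- embryo was well above background, and the sources used here do not say which part of the transcript the probe matches. In *Dullard*-/- embryos of this stage the study found *Dullard* mRNA neither by in situ hybridization nor by Q-PCR. The source of the remaining array signal was not tested.

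*Six2*, best known for keeping nephron progenitors undifferentiated in the developing kidney, was read by 2 probes that matched its transcript NM_011380. The brighter probe had signals of 134 on the *Dullard*-/- array, against 35.7 on the *Dullard*+/- array, or 4.06-fold after scaling. The dimmer probe had 32.0 on the *Dullard*-/- array, against 7.79 on the *Dullard*+/- array, or 4.43-fold. Both probes were thus about equally far apart on the 2 arrays, with log2 fold changes of 2.02 and 2.15. The gap between the probes was 0.13. Over 3747 genes with several probes, the probes scattered around the mean of their gene with a pooled SD of 0.29. That SD is not the spread of a difference between 2 probes.

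The mean over both probes was a log2 fold change of 2.09 ± 0.12, or 4.24-fold, and *Six2* was the 7th highest of the 14771 genes. Of the 7 members 1 was past 2-fold higher and 0 past 2-fold lower, which says nothing about the family because *Six2* chose it. The reading of the dimmer probe in the *Dullard*+/- embryo lay close to 6.20, the dimmest reading that passed the background test there. With median spot signals, normexp background correction and an offset of 50 together, *Six2* had a log2 fold change of 0.82, below 2-fold.

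**Figure D1:**
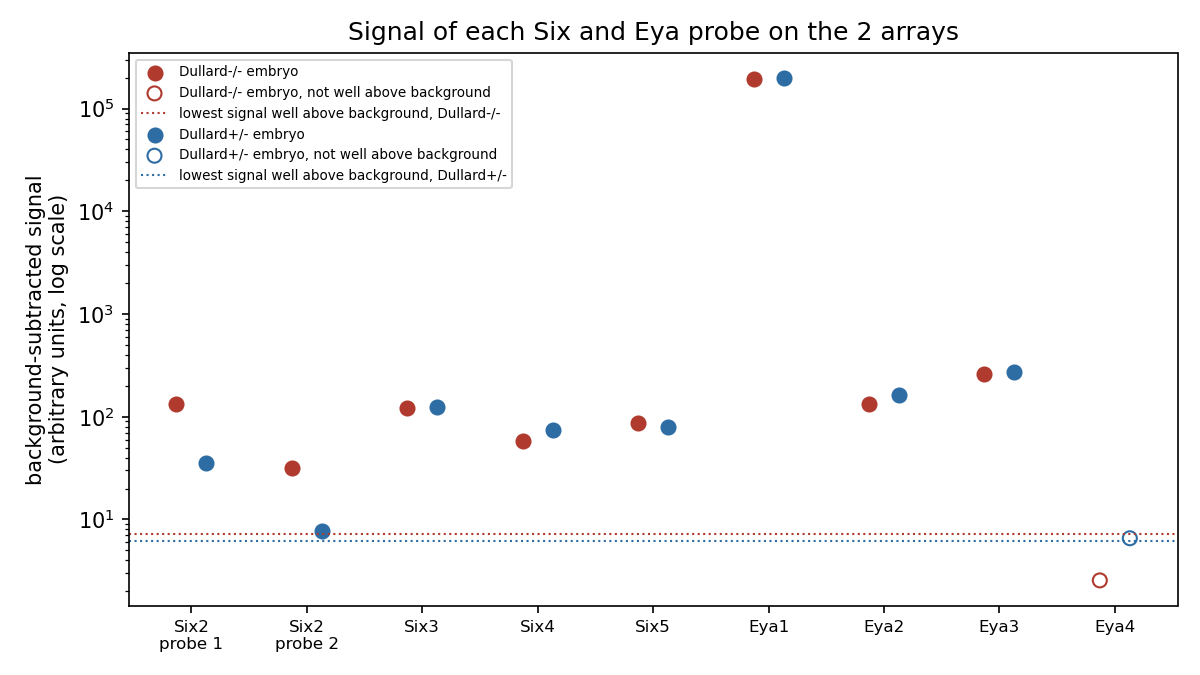
Background-subtracted signal of each of the 9 probes (arbitrary units, log axis), *Dullard*-/- embryo left and *Dullard*+/- embryo right of each pair, with open circles for readings not well above background and dotted lines at the lowest signal well above background. Both *Six2* probes read higher in *Dullard*-/-, whereas the other measured pairs lie nearly level. Heights of different probes cannot be compared.

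Only 3747 of the 14771 genes had several measured probes, and 9 of those were at least 2-fold higher as a mean. In 3 of the 9 every probe was past 2-fold, namely *Six2* (2.09), *Vax1* (1.74), a homeobox gene of the ventral forebrain, and *Irs4* (1.51), an adaptor of insulin signalling, given as log2 fold changes. *Six2* was selected on these same probes, so their agreement is a description, and *Vax1* and *Irs4* were chosen after their values were seen.

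The genes closest to *Six2* in the order of log2 fold change were taken as those most like it, a likeness that rests on a single difference between 2 arrays. Just above it were *Baiap2l1*, *Lefty1*, a secreted antagonist of Nodal, and *Dclk3*, a kinase of the doublecortin-like group, whose log2 fold changes exceeded that of *Six2* by 0.148, 0.104 and 0.055. Just below it were *Dmbx1*, a homeobox gene of the midbrain and forebrain, *Vldlr*, a lipoprotein and reelin receptor, and *Itga8*, an integrin subunit of kidney mesenchyme, at -0.026, -0.083 and -0.139 from it. Each of these 6 rests on 1 measured probe. The *Dullard*+/- readings of *Dclk3* (7.90), *Dmbx1* (8.44) and *Itga8* (7.31) were close to 6.20, the dimmest reading that passed the background test there. A further probe of *Vldlr* was well above background on neither array.

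On chromosome 17 the protein-coding genes beside *Six2* are *Six3* and *Srbd1*, and both were nearly level. *Six3*, a repressor that shapes the anterior neural plate and the eye field, had a signal of 122 on the *Dullard*-/- array, against 124 on the *Dullard*+/- array, a log2 fold change of 0.09 ± 0.08. *Srbd1*, a gene with an S1 RNA-binding domain, had a log2 fold change of -0.05 ± 0.10 over 2 probes. *Six3os1*, a noncoding RNA transcribed next to *Six3*, was well above background on neither array with either of its 2 probes.

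*Six4* and *Six5* moved little and in opposite directions. *Six4*, which acts in muscle and sensory organs, had signals of 58.0 on the *Dullard*-/- array, against 74.4 on the *Dullard*+/- array, a log2 fold change of -0.25 ± 0.11. *Six5*, the neighbour of the myotonic dystrophy kinase gene, had 87.5 on the *Dullard*-/- array, against 79.2 on the *Dullard*+/- array, a log2 fold change of 0.26 ± 0.09. Of all genes, 30.1% had a larger change in size than any member other than *Six2*.

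*Six6*, an eye and pituitary gene of the same family that is not among the 8 genes, was not well above background on either array.

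Of the Eya coactivators, none of the 3 measured genes reached 2-fold. *Eya1*, needed for ear and kidney development, gave a signal of 195511 on the *Dullard*-/- array, against 197831 on the *Dullard*+/- array, a log2 fold change of 0.10 ± 0.05. That spot was the 20th brightest on both arrays, but signals of different probes cannot be compared as levels of RNA. *Eya2* had signals of 132 on the *Dullard*-/- array, against 163 on the *Dullard*+/- array, a log2 fold change of -0.18 ± 0.08. *Eya3*, the most widely expressed of the family, had 260 on the *Dullard*-/- array, against 273 on the *Dullard*+/- array, a log2 fold change of 0.04 ± 0.07. *Eya4*, a gene of hearing and heart muscle, had 2.55 on the *Dullard*-/- array, against 6.56 on the *Dullard*+/- array, neither well above background, so no fold change is given.

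Ordered by log2 fold change, the measured genes ran from *Six2* through *Six5*, *Eya1*, *Six3*, *Eya3* and *Eya2* to *Six4*. The steps between *Six2* and *Six5* (1.83), between *Six5* and *Eya1* (0.16) and between *Eya3* and *Eya2* (0.23) were larger than the combined spot error. The remaining neighbours in that order did not differ beyond it. The steps of 0.16 and 0.23 are below the pooled SD of 0.29 of probes around the mean of their gene. The order of the genes below *Six2* is therefore not settled by these arrays. The median of the 7 genes was 0.09, beside 0.01 for all genes, with 6 of the 7 within 1.2-fold as were 71.1% of all genes. Signs of the smallest differences depended on the scaling. *Six3*, *Eya1* and *Eya3* were higher in the *Dullard*-/- embryo after scaling and at -0.02, -0.02 and -0.07 without it.

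**Figure D2:**
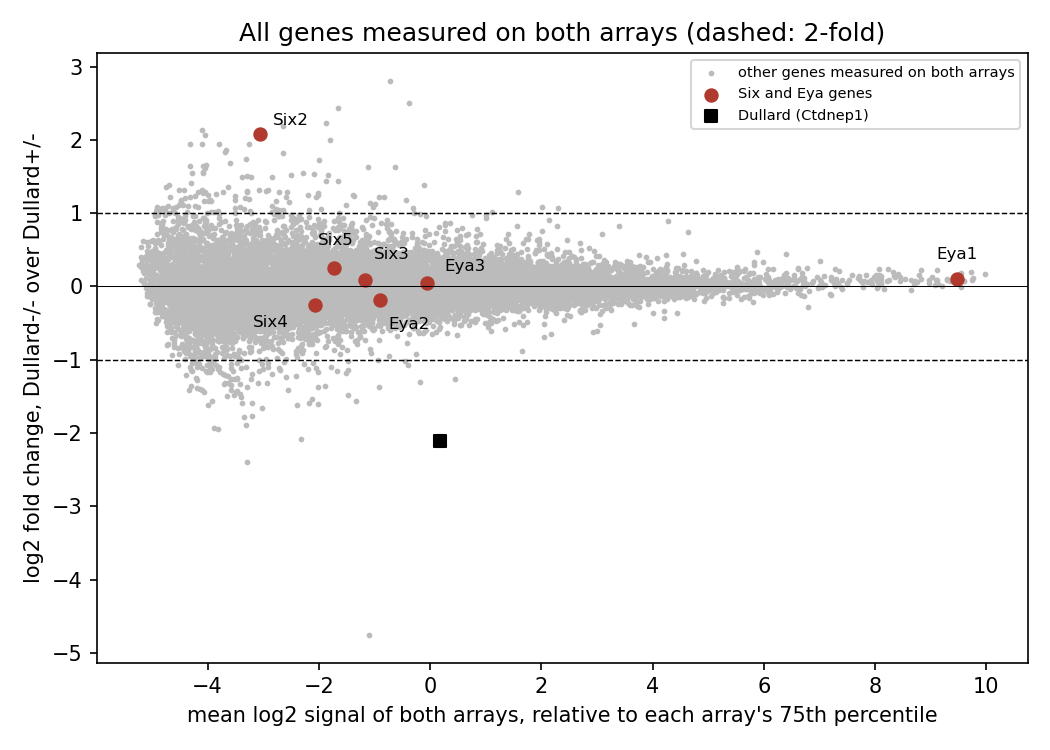
Log2 fold change (*Dullard*-/- over *Dullard*+/-) of all 14771 genes measured on both arrays against their mean log2 signal relative to the 75th percentile, with the members in red, *Dullard* as a black square and dashed lines at 2-fold. *Six2* stands among the highest genes, and the other 6 members lie well inside the 2-fold lines, *Eya1* at the bright end of the signal axis.

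**Figure D3:**
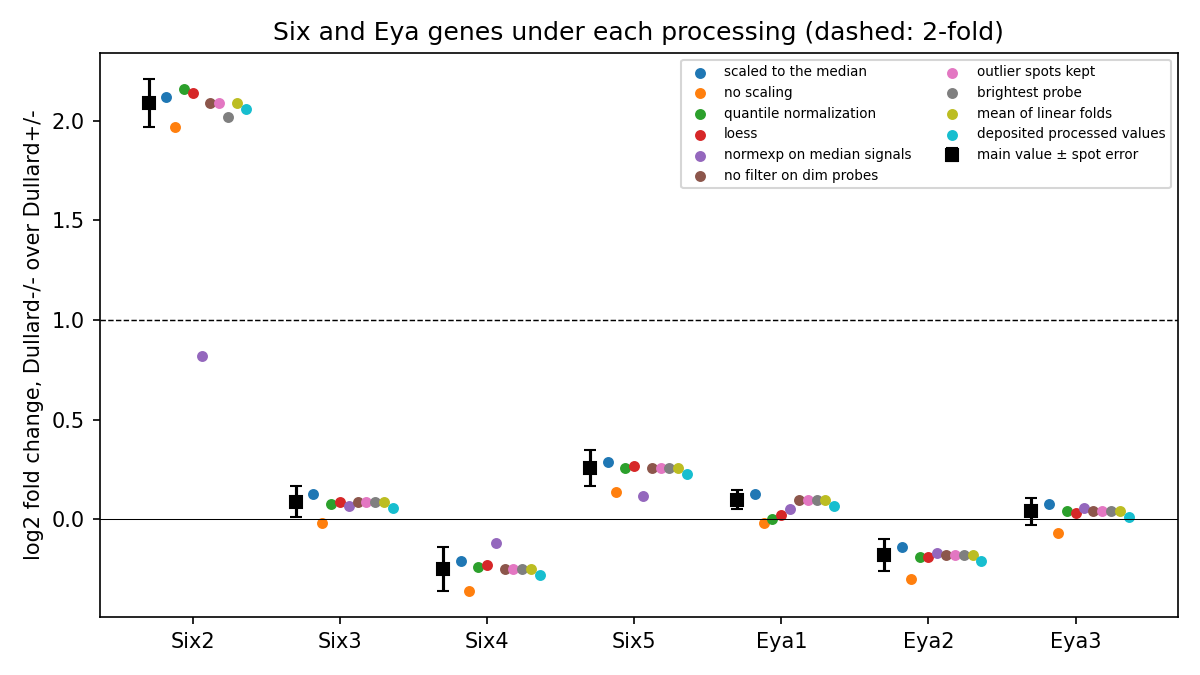
Log2 fold change (*Dullard*-/- over *Dullard*+/-) of the 7 measured members as reported (black squares, ± spot error) and under the 10 processing alternatives (coloured points), with a dashed line at 2-fold. *Six2* is past the line under all alternatives but normexp, where it is at 0.82.

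Genes of proteins that work with Six-family and Eya factors stayed short of 2-fold where measured. Of 6 Dach, Ski and Sobp cofactors 5 were measured, 0 of them past 2-fold. Their log2 fold changes had a median of 0.07, of which the highest was *Skil* (0.78), a corepressor of SMAD proteins, and the lowest *Ski* (-0.28), its relative. All 6 listed genes of the Groucho family were measured, 5 of them higher, with a median of 0.25. Some proteins of that family bind Six-family proteins such as Six3 as corepressors, but not every listed gene encodes such a corepressor. The listed genes ran between *Tle6* (0.48) and *Tle1* (-0.02), with 0 past 2-fold.

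Pax genes, which act upstream of or beside Six-family genes, were mostly at or near background. Of 8 Pax genes 2 were measured on both arrays, *Pax5* (-0.09) and *Pax2* (-0.16), and 3 were well above background on neither. Over the whole array 0.749% of the 20281 named genes were well above background in *Dullard*-/- alone and 4.45% in *Dullard*+/- alone, so readings on the *Dullard*+/- array alone were the commoner kind throughout. *Pax7* was read only in the *Dullard*-/- embryo, with 14.7 there and 6.61 in the *Dullard*+/- embryo, at least 2.41-fold brighter in *Dullard*-/-. *Pax8* was read only in the *Dullard*+/- embryo, with 1.55 on the *Dullard*-/- array, against 12.0 on the *Dullard*+/- array, at least 1.52-fold brighter in *Dullard*+/-. *Pax3* also passed the background test in *Dullard*+/- alone. These bounds set the bright array against the dimmest reading that passed the background test on the dim one, or the probe's own reading where that was higher.

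Genes that Six-family and Eya proteins are known to control in other tissues were led by *Gfi1*, a zinc finger repressor of hair cells and blood, with 26.7 on the *Dullard*-/- array, against 9.83 on the *Dullard*+/- array, a log2 fold change of 1.55 ± 0.22. That value rests on 1 probe, and its *Dullard*+/- reading was not far above 6.20, the dimmest reading that passed the background test there. *Gfi1* was the only one past 2-fold of 13 measured target genes out of 17. The median was 0.11, 9 were higher and 4 lower, and the lowest was *Ccna1* (-0.18), a cyclin of the germ line. *Myf5*, *Gdnf*, *Shh* and *Atoh1* were well above background on neither array.

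Genes of the kidney lineage in which *Six2* is best known had a median near that of all genes. Of 14 genes of nephron progenitors and intermediate mesoderm 9 were measured, 0 past 2-fold, with a median of 0.03. They ran between *Sall1* (0.56), a zinc finger factor that works with Six2 in nephron progenitors, and *Foxc1* (-0.66), a forkhead gene of mesoderm. *Hoxa11*, a Hox gene that acts upstream of *Six2* in the kidney, had a mean over 10 spots of 20.9 on the *Dullard*-/- array, against 5.74 on the *Dullard*+/- array. Well above background were 10 of 10 spots on the *Dullard*-/- array and 4 of 10 on the *Dullard*+/- array, and it was at least 3.64-fold brighter in the *Dullard*-/- embryo. Its paralog *Hoxd11* ran the other way, with 3.95 on the *Dullard*-/- array, against 13.4 on the *Dullard*+/- array, at least 1.70-fold brighter in *Dullard*+/-. Another paralog, *Hoxc11*, was well above background on neither array, and *Meox1* passed the background test in *Dullard*+/- alone.

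Genes of the anterior neural plate, the region of *Six3*, were mostly higher in the *Dullard*-/- embryo where both arrays could be read. Of 10 genes 6 were measured, 5 of them higher, with a median of 0.39 (0.21 with normexp). Among the higher ones, *Sox1* (0.02 ± 0.07) and *Rax* (0.15 ± 0.22) lay within their spot error. The one past 2-fold was *Dmbx1* (2.06), read by 1 probe. Its *Dullard*+/- reading of 8.44 was close to 6.20, the dimmest reading that passed the background test there. The lowest log2 fold change was that of *Lhx2* (-0.66), a LIM homeobox gene of the eye field. *Lhx5*, another LIM homeobox gene, was read in *Dullard*+/- alone, at least 1.45-fold brighter there. Of 10 genes of the foregut and anterior endoderm 8 were measured, with a median of 0.50 and 1 past 2-fold. That was *Gsc*, the goosecoid homeobox gene of the organizer, with 426 on the *Dullard*-/- array, against 65.8 on the *Dullard*+/- array, a log2 fold change of 2.81 and the highest of all genes. The lowest was *Foxa1* (0.00), and *Pyy*, a gut peptide gene, was read in *Dullard*+/- alone, at least 1.47-fold brighter there.

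Genes of the preplacodal and non-neural ectoderm, where *Six4* and Eya genes are switched on, were mostly lower in *Dullard*-/-. Of 12 genes 8 were measured, 6 of them lower and 0 past 2-fold. Their median was -0.26, between *Foxi3* (0.22) and *Gata2* (-0.76), but -0.04 with normexp and -0.50 with no filter on dim probes. A further 4 passed the background test in *Dullard*+/- alone, as did 4.45% of all named genes. Among them *Dlx5*, a homeobox gene of the neural plate border, had 6.34 on the *Dullard*-/- array, against 32.3 on the *Dullard*+/- array, at least 4.11-fold brighter in *Dullard*+/-. The 2 probes of *Tfap2a*, an AP-2 factor of the surface ectoderm, had 1.44 and 1.81 on the *Dullard*-/- array, against 31.8 and 11.7 on the *Dullard*+/- array. *Dlx5* and *Tfap2a* were chosen after their values were seen. Head and paraxial mesoderm genes had a median of -0.05 over 10 of 12, between *Mesp2* (0.80) and *Tbx1* (-0.69), with 0 past 2-fold.

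**Figure D4:**
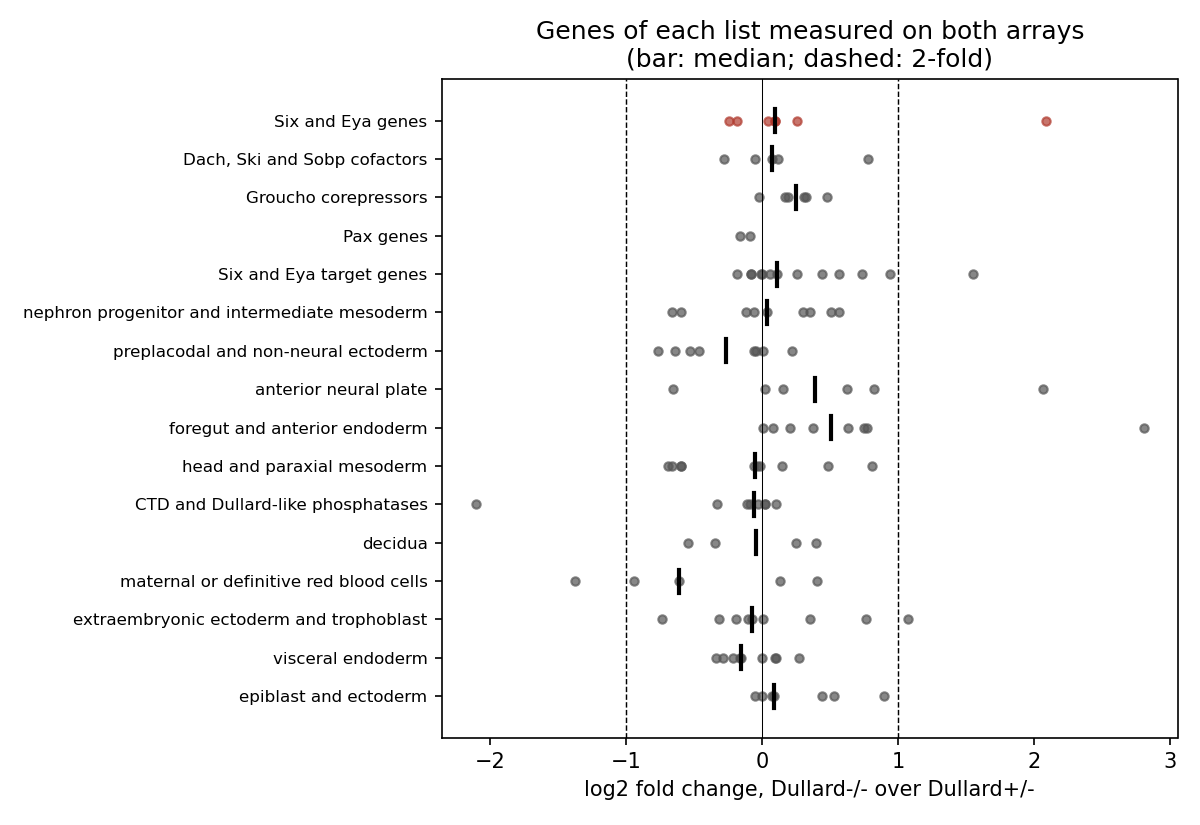
Log2 fold change (*Dullard*-/- over *Dullard*+/-) of the genes measured on both arrays in each list, a point per gene, with the median as a bar where at least 3 genes were measured and dashed lines at 2-fold. Anterior neural plate genes have a median of 0.39 and genes listed for maternal or definitive red blood cells one of -0.61.

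The other genes on a list of Dullard-like phosphatases stayed short of 2-fold, and the superfamily as a whole was not surveyed. Apart from *Dullard* itself the remaining genes of that list ran between *Ctdsp2* (0.10) and *Ctdspl2* (-0.33), and the median of all 8 was -0.06.

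Markers of other tissues in a whole embryo were read beside these values. Of 10 decidua genes 6 were well above background in *Dullard*-/- and 5 in *Dullard*+/-. On neither array were *Prl8a2*, *Dcn*, *Lum* and *Hoxa10* well above background. The 10 decidua genes summed to 0.344 on the *Dullard*-/- array, against 0.259 on the *Dullard*+/- array, in units of the 75th percentile. *Hoxa11*, named above beside kidney genes, is also on the decidua list and is its one gene read in *Dullard*-/- alone. Without it the sums were 0.265 in *Dullard*-/- and 0.239 in *Dullard*+/-. Their measured genes ran between *Hand2* (0.39) and *Pgr* (-0.55). Of 7 genes listed for maternal or definitive red blood cells 5 were well above background in *Dullard*-/- and all 7 in *Dullard*+/-, where 4.45% of all named genes were read alone. That list does not separate such cells from the embryo's own first blood cells. *Hbb-bt* and *Hbb-bs*, the beta globin genes of that list, were at least 7.19-fold and 2.93-fold brighter in *Dullard*+/-. The median of the 5 measured genes was -0.61 (-0.24 with normexp and -0.95 with no filter on dim probes), with *Hba-a2* (-1.38), an alpha globin gene, past 2-fold lower. Their highest was *Car2* (0.41), and the list's sums were 6.29 in *Dullard*-/- and 6.24 in *Dullard*+/-, mostly from *Car2*. Without *Car2* they were 0.999 in *Dullard*-/- and 2.25 in *Dullard*+/-. Of the extraembryonic ectoderm and trophoblast genes 9 of 10 were well above background on each array, with a median of -0.08, a lowest value of -0.74 for *Ascl2* and *Prl3d1* (1.07), a prolactin family gene of giant cells, past 2-fold. The *Prl3d1* value rests on 1 of its 2 probes, and the other was well above background on neither array. Visceral endoderm genes had a median of -0.15, between *Afp* (0.27) and *Cubn* (-0.34), and epiblast and ectoderm genes one of 0.09, between *Fgf5* (0.89) and *Pou5f1* (-0.06). The part that differences in tissue make-up, stage or sex play in the value of *Six2* was not tested.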

How the data were processed

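Total RNA of 1 Dullard-/- and 1 Dullard+/- embryo was labelled with Cy3 and read on 1-colour Agilent whole mouse genome arrays. The sample labels and the paper's methods differ on the amount of RNA and the amplification kit. The authors deposited each array's spot intensity as Agilent Feature Extraction 10.10 gives it after background subtraction. They also deposited processed values, equal to the same intensity times 5.20 for Dullard-/- and 4.91 for Dullard+/-. The origin of these constants is unknown here, and those values served as an alternative. No spot was saturated, and 29310 of 43020 spots in Dullard-/- and 31242 in Dullard+/- were well above background. The number of arrays limits the precision.

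Log2 signals were taken relative to the 75th percentile of each array over spots that are not controls. Before averaging the spots of each probe, 206 spots that Feature Extraction marked as outliers were dropped. Fold changes per gene average those probes of which at least 50% of spots passed the background test on each array. Accessions without versions were matched to a RefSeq gene table (GRCm38.p6), which named 30235 spots and left 12785 unnamed. The spot error pools the 40 probes nearest in signal of 196 with at least 10 spots.

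No test was run. Called means past 2-fold. The text names all members, Dullard, the 3 genes on each side of Six2 in order, every list gene past 2-fold (otherwise the highest and lowest of the list) and the genes beside Six2. Other list genes that the text names, among them all those read on 1 array alone, and the Y-linked genes were chosen after their values were seen. Some genes of the lists are not reported here and were left out of their counts and medians. Members and lists were chosen with earlier results of these data known. The steps were tested on simulated arrays. Alternatives were scaling to the median, no scaling, quantile normalization, loess (span 0.3), normexp (offset 50) on median signals, no filter on dim probes, outlier spots kept, the brightest probe, the mean of linear folds, the processed table and a 1.5-fold size. Python 3.11.15, numpy 2.4.6, pandas 2.3.3, matplotlib 3.10.9, R 4.3.3 and limma 3.58.1 were used.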

Additional observations from a re-analysis of the deposited data

How the results depend on the processing

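*Six2* was higher in the Dullard-/- embryo under all 10 alternatives, at log2 fold changes between 0.82 and 2.16, and past 2-fold under all but normexp on median signals (0.82). That setting changes the signal column, the background correction and the offset at once, and which of them lowers the value was not tested. With normexp 0 members were past 2-fold higher, and all genes past 2-fold numbered 10 higher and 5 lower, against 132 higher and 113 lower as reported. Without a filter on dim probes these were 484 higher and 778 lower, and 1 member was past 2-fold lower, *Eya4* (-1.25), which was well above background on neither array. At 1.5-fold 579 genes were higher and 498 lower. Without scaling 90 genes were higher and 165 lower, which turns the balance of the calls, the median of the members was -0.02, and the median of all genes moved by -0.11. The signs of *Six4*, *Six5* and *Eya2* held under all 10 alternatives, not all of which could turn them. Every probe of a measured member had 1 spot that passed the filters. Dropping the filter or keeping outlier spots therefore could not change any measured member. For members with 1 probe, the brightest probe and the mean of linear folds could not either. Scaling to the median, no scaling and the processed table shift all genes alike. *Six3* and *Eya3* turned without scaling, and *Eya1* turned without scaling and was at 0.00 with quantile normalization. No paired analysis was possible because each genotype has 1 array. The arrays give no spread between embryos, and the *Dullard*+/- reading of the dimmer *Six2* probe, 7.79, is close to the lowest signal well above background, 6.20.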
